A study of Mus musculus with 8 samples.

Results

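The 10 immediate early genes Fos, Fosb, Jun, Junb, Egr1, Ier2, Ier3, Atf3, Dusp1 and Btg2 were read in palatal shelves of mouse embryos at embryonic day 14.5. These shelves are the outgrowths of the upper jaw that fuse into the palate. The members were all probe sets annotated with exactly 1 of these symbols, which gave 12 of the 45037 probe sets on the array, and 11 of these, from 9 genes, lay above a filter on dim signals. The data were 8 Affymetrix arrays. Of these, 4 held RNA of R26Pax3/Pax3 embryos (replicates 1, 3, 4 and 7, called mutant below), littermates whose allele name denotes Pax3 placed at the Rosa26 locus, and 4 held RNA of wild type embryos (replicates 2, 6, 8 and 11). Both groups came from a cross of C57BL/6 with SV129. The labels name no driver of the allele and do not say how many embryos went into a sample, so the p-values cover only sample-to-sample spread, which may be technical. In bulk tissue, fewer cells of a type and less RNA per cell cannot be told apart.

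Immediate early genes are transcribed within minutes of a stimulus, without new protein synthesis, by factors such as SRF and CREB that already sit on their promoters. Their mRNAs are short-lived, so their levels follow recent signals to a cell. Growth factors, stretch and stress induce them, and so do handling and dissociation of tissue, which is why they are read as a mark of how a sample was taken. The members cover subunits of the AP-1 transcription factor and its relative Atf3, the zinc finger factor Egr1, the small nuclear protein Ier2, the survival protein Ier3, the kinase phosphatase Dusp1 and the growth-suppressing cofactor Btg2. The comparison with wild type asks whether these genes differ by genotype, and the comparison between arrays asks whether they go up and down together, as genes induced by dissection would.

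Promoter sequence of 4 members is shown because Dusp1 and Btg2 were the members with the palindromic CREB site, while Ier3 had the largest genotype difference and Fos is the reference for the comparison between arrays. Each stretch is the 250 bases before the annotated start in RefSeq on build GRCm38.p6, written 5′ to 3′ on the gene's own strand. Capitals mark TGACG or its full palindrome TGACGTCA, the site known for CREB and ATF factors, and TATAAA, the TATA box.
Fos (chr12:85473640-85473889, plus strand): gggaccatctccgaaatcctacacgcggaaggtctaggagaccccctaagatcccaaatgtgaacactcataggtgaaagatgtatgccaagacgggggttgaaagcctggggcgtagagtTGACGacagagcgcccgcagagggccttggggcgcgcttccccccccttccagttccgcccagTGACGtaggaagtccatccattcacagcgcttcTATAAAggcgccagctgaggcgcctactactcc
Dusp1 (chr17:26508473-26508722, minus strand): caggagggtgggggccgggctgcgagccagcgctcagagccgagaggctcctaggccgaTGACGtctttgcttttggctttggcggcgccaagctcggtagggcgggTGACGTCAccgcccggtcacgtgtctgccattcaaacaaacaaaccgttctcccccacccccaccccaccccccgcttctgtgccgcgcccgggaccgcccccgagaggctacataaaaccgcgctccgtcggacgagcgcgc
Btg2 (chr1:134079156-134079405, minus strand): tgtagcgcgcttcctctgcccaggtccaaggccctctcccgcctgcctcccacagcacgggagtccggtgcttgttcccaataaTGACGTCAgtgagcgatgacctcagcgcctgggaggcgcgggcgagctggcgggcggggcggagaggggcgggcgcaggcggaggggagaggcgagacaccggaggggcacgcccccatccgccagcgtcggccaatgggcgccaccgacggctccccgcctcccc
Ier3 (chr17:35821463-35821712, plus strand): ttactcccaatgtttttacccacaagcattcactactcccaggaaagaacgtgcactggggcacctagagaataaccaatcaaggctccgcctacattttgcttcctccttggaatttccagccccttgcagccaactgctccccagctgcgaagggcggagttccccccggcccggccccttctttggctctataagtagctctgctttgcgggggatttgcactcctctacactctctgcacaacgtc

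The RefSeq table held a promoter for 8 of the members, and Egr1 and Ier2 were not among them. The palindrome TGACGTCA, its first bases TGACG, the TATA box TATAAA, the AP-1 site TGANTCA and the CArG box bound by SRF were searched on both strands. TGACG is part of TGACGTCA, so these overlap. The palindrome stood in the promoters of 2 of the 8, Dusp1 and Btg2, and in 1.55% of all 32544 promoters of this length. TGACG stood in 6 of the 8, and in 17.8% of all promoters. TATAAA stood in Fos alone of the 8, and in 12.3% of all. TGANTCA, found in 6.73% of all promoters, and the CArG box, found in 1.48%, stood in none of the 8 windows. In the window of Ier3 none of these letters was found.

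Pax3, the inserted gene, was higher in mutants on 2 of its 3 probe sets. On the brightest of these the mutant mean was 619 ± 88.8 and the wild type mean 162 ± 14.6 (SD, n = 4 each; limma adjusted p = 1.70e-05). On the third the means were 82.5 ± 21.5 and 103 ± 14.0, with overlapping groups (log2 fold change -0.29, limma adjusted p = 1.00). No pair of arrays was identical, and array medians lay between 43.5 and 44.8 in MAS5 signal, the linear intensity per probe set that the authors deposited. Fold changes below are mutant minus wild type on log2(signal + 16), which understates those of dim genes. The test was limma's moderated test over all 27021 probe sets past the filter, with Benjamini-Hochberg adjustment, and SE is its standard error. All 8 palate mesenchyme markers on the array, among them Osr2, Msx1 and Shox2, passed the filter, and 0 were called between genotypes. Their brightest probe sets read 245.6 or more on every array.

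Ier3 was the member that stood apart by genotype. It encodes a protein that protects cells from death and is induced by NF-kappaB and growth factor signals. Its signal was 264.7, 177.9, 282.9 and 260.1 in mutant replicates 1, 3, 4 and 7. It was 134.3, 150.5, 137.1 and 135.9 in wild type replicates 2, 6, 8 and 11. All mutant arrays were above all wild type arrays, although mutant replicate 3 lay closer to the wild type arrays than to the other mutants. The means were 246 ± 46.7 and 139 ± 7.46 (SD, n = 4 each), so mutants stood 1.77-fold higher, or 0.74 on the log2 scale (SE 0.133). It ranked 18 of 27021 probe sets by p, but missed the threshold over all of them (limma adjusted p = 0.206). Without mutant replicate 3 it passed, at 0.88 on the log2 scale (adjusted p = 0.0151 in limma), and the adjusted p ran from 0.0151 to 0.692 over the alternatives. Split by deposit order into sets with 2 arrays of each genotype, the log2 difference was 0.55 in the earlier set and 0.93 in the later.

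None of the members passed the test over all probe sets. Of the 11 tested, 0 had an adjusted p under 0.05 in limma, where 0.0148% of all probe sets did. At an unadjusted p under 0.05 there was 1, Ier3, against a background of 4.86% in either direction and 2.43% higher in mutants. Ier3 was also the 1 probe set of the 11 whose groups did not overlap, against 2.73% of all probe sets, or 1.39% in its direction. With the brightest probe set of each gene, 8 of 9 genes had a higher mean in mutants and 1 a lower one, where 50.3% of all probe sets tested were higher. The median log2 fold change of the 9 genes was 0.18, beside 0.00 over the 12339 genes tested. That median was 0.11 without mutant replicate 3, 0.28 without mutant replicate 7 and 0.11 with 64 added in place of 16.

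**Figure D1:**
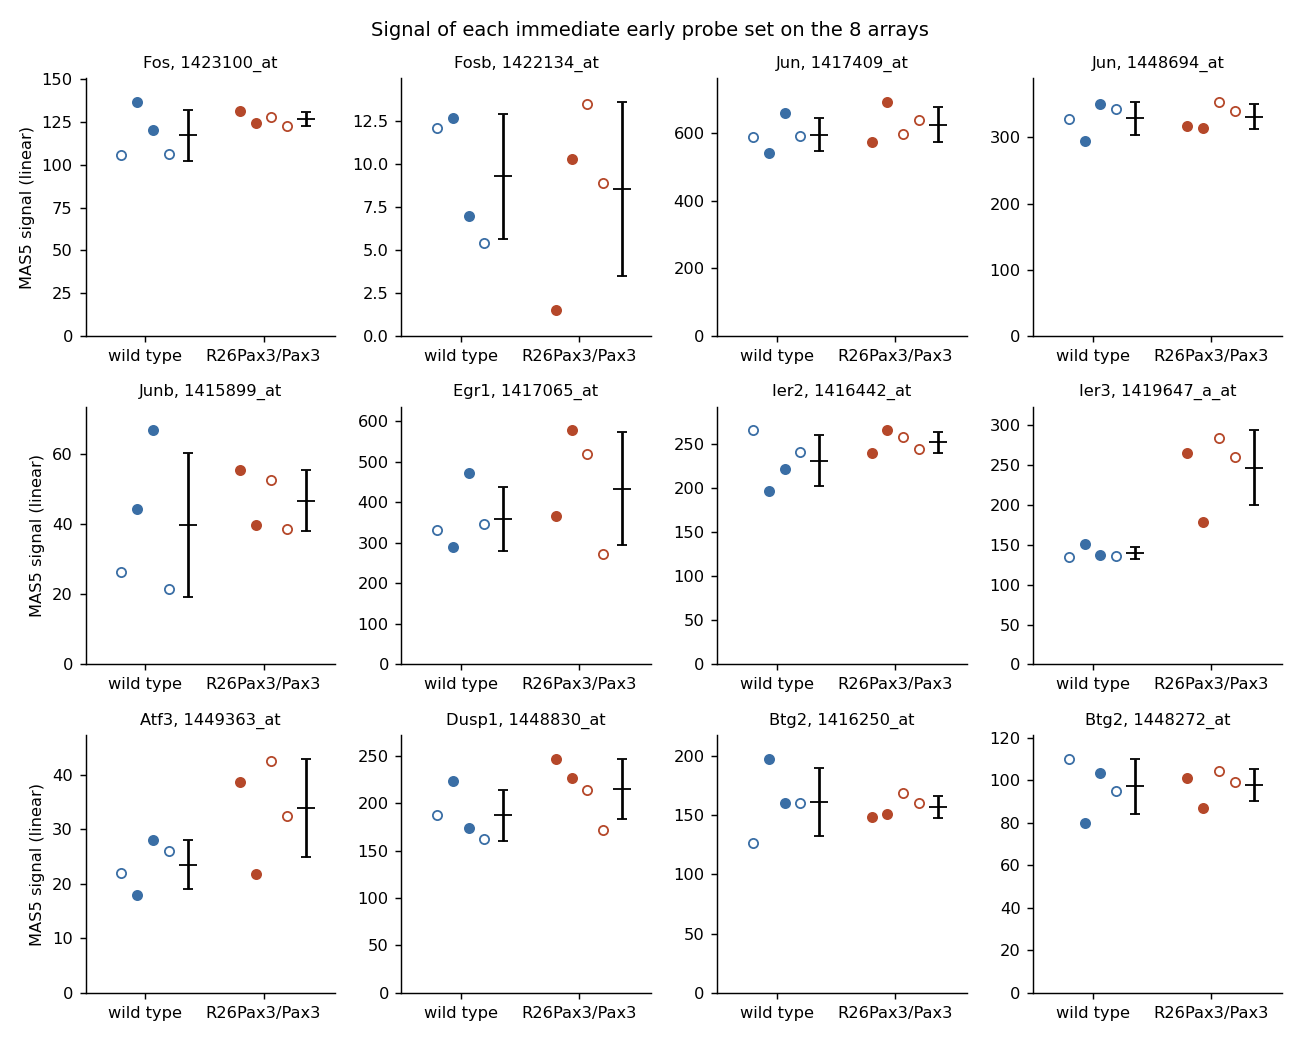
MAS5 signal of the 12 probe sets on each array, on linear axes that start at 0. Points are arrays, filled for the first 4 deposited and open for the last 4, and bars are the mean ± SD of 4 arrays. Only Ier3 shows groups that do not overlap, and Fosb reads between 1.5 and 13.5 throughout.

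Fos, the founding AP-1 subunit, was nearly flat. Its signal was 131.6, 124.4, 128.0 and 122.8 in mutant replicates 1, 3, 4 and 7, and 105.7, 136.8, 120.3 and 106.1 in wild type replicates 2, 6, 8 and 11. The highest and lowest arrays were both wild type, and they differed 1.29-fold. The mutant arrays lay within the range of the wild type arrays, and the log2 difference was 0.11 (SE 0.109, adjusted p = 1.00 in limma). The spread of Fos within genotypes was smaller than that of most probe sets of like brightness, at the 10.6th percentile of its decile of mean signal.

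Fosb, a further AP-1 subunit that is close to silent until cells are stimulated, read between 1.5 and 13.5. It was dimmer than the array's median on all 8 arrays, it did not pass the filter, and no difference is given. Junb, the AP-1 subunit that often opposes Jun, had the widest range of the tested members, 3.10-fold from lowest to highest. It read 55.7, 39.9, 52.7 and 38.6 in mutant replicates 1, 3, 4 and 7, and 26.5, 44.5, 66.9 and 21.6 in wild type replicates 2, 6, 8 and 11. The wild type arrays enclosed all mutant values. The log2 difference was 0.23 (SE 0.232, adjusted p = 1.00 in limma), with -0.16 in the earlier and 0.62 in the later deposit set. On 4 of the 8 arrays Junb was dimmer than the array's median, so part of this range is near background.

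Jun, the main partner of Fos, was steady on both of its probe sets. The brighter read 572.3, 691.5, 596.8 and 636.8 in mutant replicates 1, 3, 4 and 7 and 587.7, 539.1, 657.2 and 591.8 in wild type replicates 2, 6, 8 and 11. The groups overlapped almost fully, with log2 fold changes of 0.07 (SE 0.0893) and 0.01 (SE 0.0888) on the 2 probe sets (limma adjusted p = 1.00 for both). Atf3, a stress-induced factor of the ATF family, read 38.7, 21.8, 42.5 and 32.5 in mutant and 21.9, 17.9, 28.0 and 26.1 in wild type arrays, in the same order of replicates. On each of the 8 arrays Atf3 was dimmer than the array's median, a level not separable from background. Mutant replicates 1, 4 and 7 were above every wild type array and mutant replicate 3 was not (log2 fold change 0.33, SE 0.179, limma adjusted p = 1.00).

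Egr1, a zinc finger factor that responds to growth factors and to mechanical load, varied strongly between arrays of the same genotype. It read 366.6, 578.0, 519.6 and 272.6 in mutant replicates 1, 3, 4 and 7. It read 332.2, 288.8, 472.2 and 346.5 in wild type replicates 2, 6, 8 and 11. The highest and the lowest array were both mutant and differed 2.12-fold. The spread within genotypes lay at the 97.9th percentile of probe sets of like brightness. The log2 difference was 0.23 (SE 0.211, adjusted p = 1.00 in limma).

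Ier2, a nuclear protein of early growth responses, read 240.2, 265.9, 258.6 and 244.9 in mutant replicates 1, 3, 4 and 7 and 265.9, 197.0, 222.4 and 241.0 in wild type replicates 2, 6, 8 and 11. Wild type replicate 2 equalled the highest mutant array, and the log2 difference was 0.12 (SE 0.103, adjusted p = 1.00 in limma). Dusp1 encodes the phosphatase that switches MAP kinases off again after a stimulus. Its signal was 246.7, 226.4, 214.0 and 172.0 in mutant and 187.9, 223.8, 174.0 and 162.1 in wild type arrays, in the same order. Mutant replicate 1 was the highest array and wild type replicate 11 the lowest, and the log2 difference was 0.18 (SE 0.129, adjusted p = 1.00 in limma).

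Btg2, a cofactor of mRNA deadenylation that restrains proliferation, gave different patterns on its 2 probe sets. The brighter read 148.5, 151.0, 168.8 and 160.1 in mutant replicates 1, 3, 4 and 7 and 126.9, 197.6, 160.3 and 160.1 in wild type replicates 2, 6, 8 and 11. The second read 101.2, 86.9, 104.2 and 99.0, and then 109.9, 79.8, 103.6 and 95.1. Wild type replicate 6 was the highest array on the brighter probe set and the lowest on the second, and wild type replicate 2 the reverse. Over the 8 arrays with genotype means subtracted, the correlation between the 2 probe sets was -0.68, and that between the 2 probe sets of Jun was 0.39. The log2 fold changes of Btg2 were -0.02 (SE 0.124) and 0.01 (SE 0.121), both with a limma adjusted p of 1.00.

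**Figure D2:**
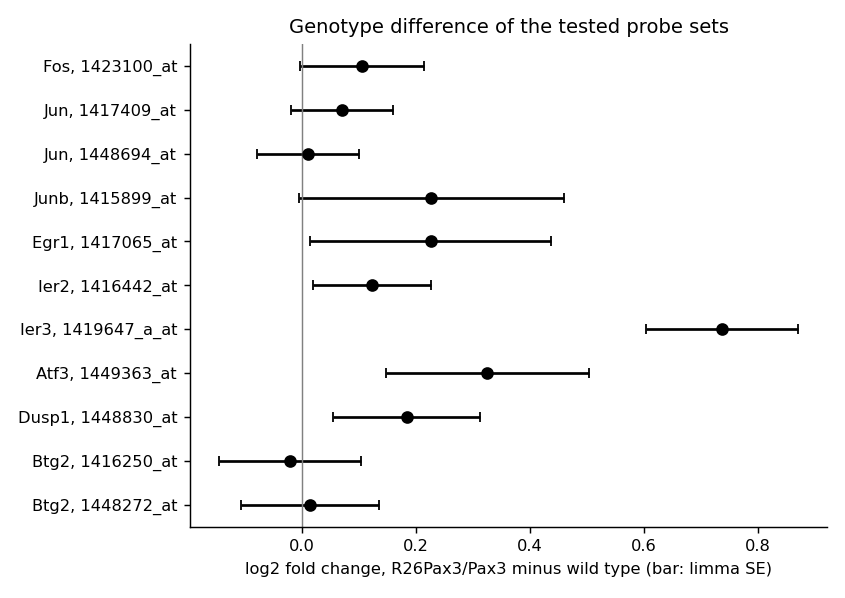
Log2 fold change on log2(signal + 16), mutant minus wild type, of the 11 tested probe sets, with limma's SE as bars. Ier3 lies at 0.74, and the other 10 lie between -0.02 and 0.33.

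The members largely agreed on which side of the median 3 arrays lay, and differed on the others. Mutant replicate 4 lay above the median of the 8 arrays for 9 of the 9 genes, mutant replicates 1 and 3 for 6 each and mutant replicate 7 for 4. Among wild type arrays the number was 5 for replicate 8, 4 for replicate 6, 1 for replicate 2 and 0 for replicate 11. Wild type replicates 2 and 11 were both among the last 4 arrays deposited. Wild type replicate 6 was at once the highest array for Fos and Btg2 and the lowest for Jun, Ier2 and Atf3. Mutant replicate 3 was the highest for Jun, Egr1 and Ier2, where it tied with wild type replicate 2, while it was the lowest mutant array for Ier3 and Atf3.

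Pairwise correlations showed little such agreement once the genotype means were subtracted. Correlations here are descriptions over 8 arrays, which share their scaling and, in sets of 4, their place in the deposit. Each deposit set holds only 2 arrays of each genotype. Values within the deposit sets therefore rest on few independent differences, and so do those given below without the 2 farthest arrays. Among the 36 pairs of the 9 genes, 19 were positive and 17 negative, with a median r of 0.03 and a range from -0.90 to 0.77. Over all pairs of the 12339 genes tested the median r was 0.01, and 14.4% of pairs were above 0.5, where 13.9% of the members' pairs were. The members' median r was 0.21 when genotype means were not subtracted, and 0.21 also without mutant replicate 3 or without wild type replicate 6. It was -0.05 when the means of the deposit sets were subtracted as well.

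**Figure D3:**
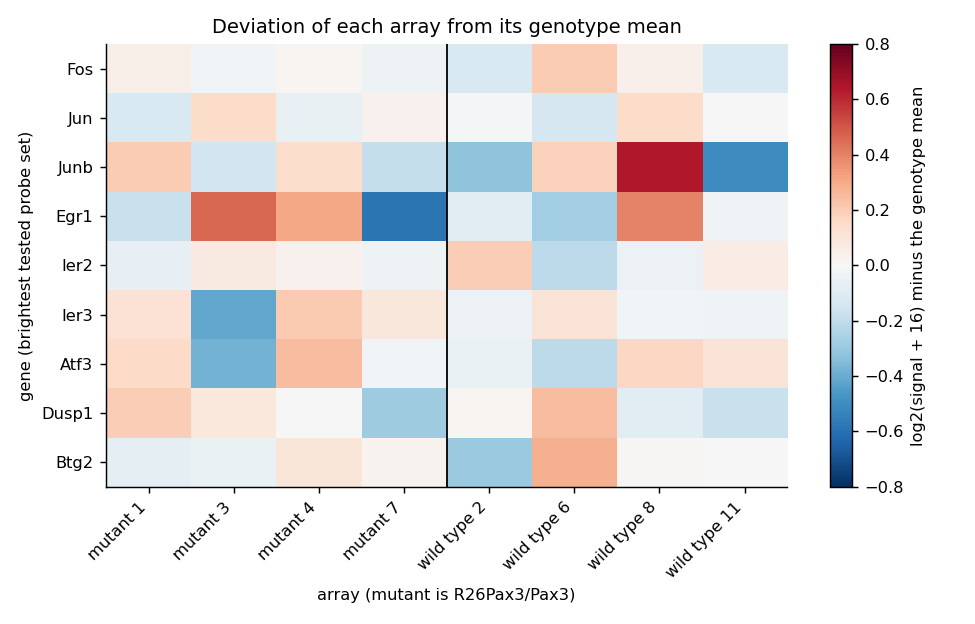
Deviation of each array from its genotype mean on log2(signal + 16), for the brightest tested probe set of 9 genes (rows) on 8 arrays (columns). No column is red or blue throughout, and Egr1 and Junb have the strongest colours.

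Some pairs ran together and others ran against each other. Fos and the brighter probe set of Btg2 had an r of 0.77 (Spearman's rho 0.48), Fos and Junb 0.70 (rho 0.88), and Fos and Dusp1 0.65 (rho 0.60). With the means of the deposit sets subtracted too, these became 0.63, -0.25 and 0.84, so the sign for Junb did not hold within the sets. The second Btg2 probe set had an r of -0.59 with Fos (rho -0.31), opposite to the brighter one, so the sign for Btg2 depended on the probe set. Both probe sets of Jun ran against Fos, at -0.39 and -0.56. Fos and Ier2 ran in opposite directions, at -0.90 (rho -0.88) and -0.68 within the sets, although both are classic early genes. Ier3 and Atf3 had an r of 0.71 (rho 0.62) and 0.67 within the sets, but Atf3 was near background on every array, so nothing is read from that pair. Egr1, the most variable bright member, had an r of -0.07 with Fos and 0.55 with Jun.

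**Figure D4:**
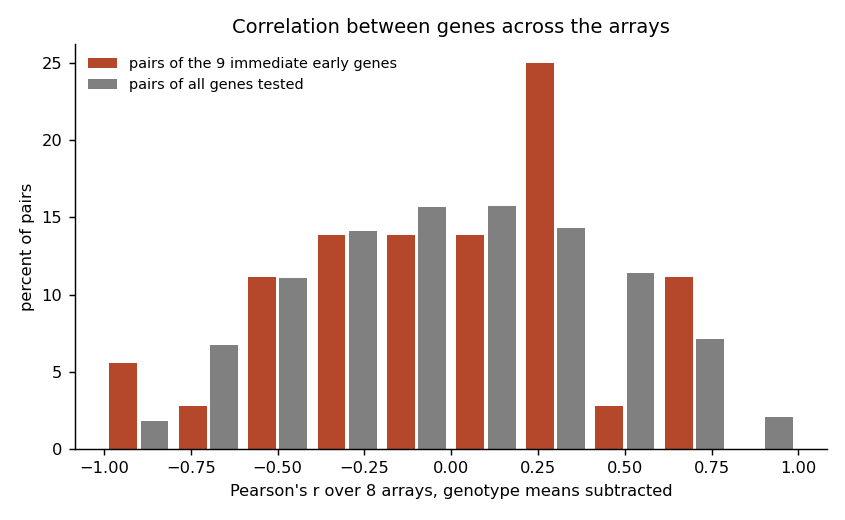
Percent of gene pairs by Pearson's r over 8 arrays with genotype means subtracted, in bins of 0.2, for the 36 pairs of members (red) and for all pairs of the 12339 genes tested (grey). The members' pairs lie on both sides of 0, with a median of 0.03 beside 0.01 for all pairs.

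The 10 other genes whose probe sets followed Fos most closely were found by Pearson's r over the 8 arrays with genotype means subtracted. They were Poldip3 (r = 0.99), Ints5, Dgkz, Parp1, Rap2c, Klhdc3, Ccn2, Sdcbp, Faap20 and Gyg (r = 0.98 for each of the other 9). Of these, Ccn2, which encodes the matricellular protein CTGF, is itself an early response gene. It read 624.5, 555.3, 581.0 and 525.2 in mutant replicates 1, 3, 4 and 7 and 377.9, 576.1, 501.7 and 372.2 in wild type replicates 2, 6, 8 and 11. As with Fos, wild type replicates 2 and 11 were lowest. Among all tested probe sets, the r with Fos placed the brighter Btg2 probe set at the 95.5th percentile, Junb at the 92.6th and Dusp1 at the 90.5th, while Egr1 stood at the 48.0th and Ier2 at the 1.02th. The probe sets of 8 of the 10 genes carry the suffix a, s or x, by which Affymetrix marks probe sets that match several transcripts or genes, and 25.4% of all tested probe sets carry one.

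Marker genes of other cell types moved with some members. All 8 neuronal markers tested had higher means in mutants (median log2 fold change 0.77, 3 at an unadjusted p under 0.05 in limma, against 2.43% of all probe sets in that direction). All 9 skeletal muscle markers tested had lower means (median -0.54, 0 at an unadjusted p under 0.05 in limma), and 0 of either list were called. Markers within a list varied together, with a median pairwise r of 0.91 for neurons and 0.95 for muscle, so they are not separate observations. Every marker of both lists differed more in the later deposit set. For Stmn2 the log2 differences were 0.13 in the earlier and 1.96 in the later set, and for Acta1 -0.05 and -1.56. In the earlier set Snap25 (-0.12) and Des (0.41) went the other way, among others. None of the 8 neuronal markers tested was at 0 on any array, but some were near background. In wild type replicate 2, Elavl4 read 2 and Snap25 7.6. The 8 neuronal markers summed to between 1046 and 1771 in mutant and between 494 and 1870 in wild type arrays. Fos had an r of 0.93 with that sum (rho 0.86), 0.70 within the deposit sets, and 0.77 without the 2 arrays farthest from the median. Both were lowest in wild type replicates 2 and 11 and highest in wild type replicate 6. Other members also ran with or against the neuronal sum. The r was 0.76 for the brighter Btg2 probe set, 0.68 for Junb, 0.64 for Dusp1 and -0.74 for Ier2. Within the deposit sets these were 0.64, -0.29, 0.76 and -0.14. For Jun, Egr1, Ier3 and Atf3 the r with that sum lay between -0.25 and 0.25. None of the 9 skeletal muscle markers tested was at 0, but Tnnt3 read 0.9 in mutant replicate 7. The 9 muscle markers summed to between 573 and 4025 in mutant and between 1834 and 4327 in wild type arrays. Egr1 had an r of 0.83 with that sum (rho 0.81), 0.91 within the deposit sets and 0.62 without the 2 farthest arrays, and mutant replicate 7 was lowest in both. Fos ran against the sum of the 8 palate mesenchyme markers, with an r of -0.66 (rho -0.81), -0.62 within the deposit sets and -0.26 without the 2 farthest arrays. These pairings, and those of Ier3, Atf3 and Jun with marker sums given next, were chosen after their values were seen. They come from 63 pairings of a member with a marker list, and the part of these cells in the results was not tested.

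Some epithelial markers had higher means in mutants beside Ier3, and none passed the test over all probe sets. The 20 epithelial markers tested, none at 0, summed to between 10265 and 13613 in mutant and between 9714 and 11279 in wild type arrays, and these ranges overlapped. Mutant replicate 3, the lowest mutant array for Ier3, was also the lowest mutant array in that sum. Of the 20 markers, 16 had higher means in mutants, 8 were higher at an unadjusted p under 0.05 in limma (2.43% of all probe sets), 4 had mutants above wild type without overlap (1.39% of all), and 0 were called. The simple keratins Krt8 and Krt18 had lower means (log2 fold changes -0.03 and -0.06), while Krt19 and the adhesion gene Epcam had 0.04 and 0.03, 4 genes named after their values were seen. Krt17, a keratin of activated and embryonic epithelium, read 543 ± 87.0 in mutant and 280 ± 88.1 in wild type arrays (SD, n = 4 each, log2 fold change 0.96, SE 0.206, limma adjusted p = 0.462). Sfn, the 14-3-3 protein of stratified epithelium, read 154 ± 10.4 and 99.6 ± 12.8 (log2 fold change 0.56, SE 0.115, limma adjusted p = 0.368). The r of Ier3 with the epithelial sum was 0.71 with genotype means subtracted (rho 0.36) and 0.68 within the deposit sets. Without the 2 farthest arrays it was -0.76, so its positive sign rested on those arrays. Atf3, near background on every array, had an r of 0.74 with that sum. It was 0.69 within the deposit sets and -0.54 without the 2 farthest arrays. With the sum of 7 macrophage markers Ier3 had an r of 0.67 (rho 0.62), 0.96 within the deposit sets and 0.42 without the 2 farthest arrays. Jun ran against the same sum, with an r of -0.79 (rho -0.86), -0.83 within the deposit sets and -0.79 without the 2 farthest arrays. That sum lay between 1299 and 2148 in mutant and between 1460 and 1710 in wild type arrays. The part of epithelium or of macrophages in the difference of Ier3 was not tested.

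**Figure D5:**
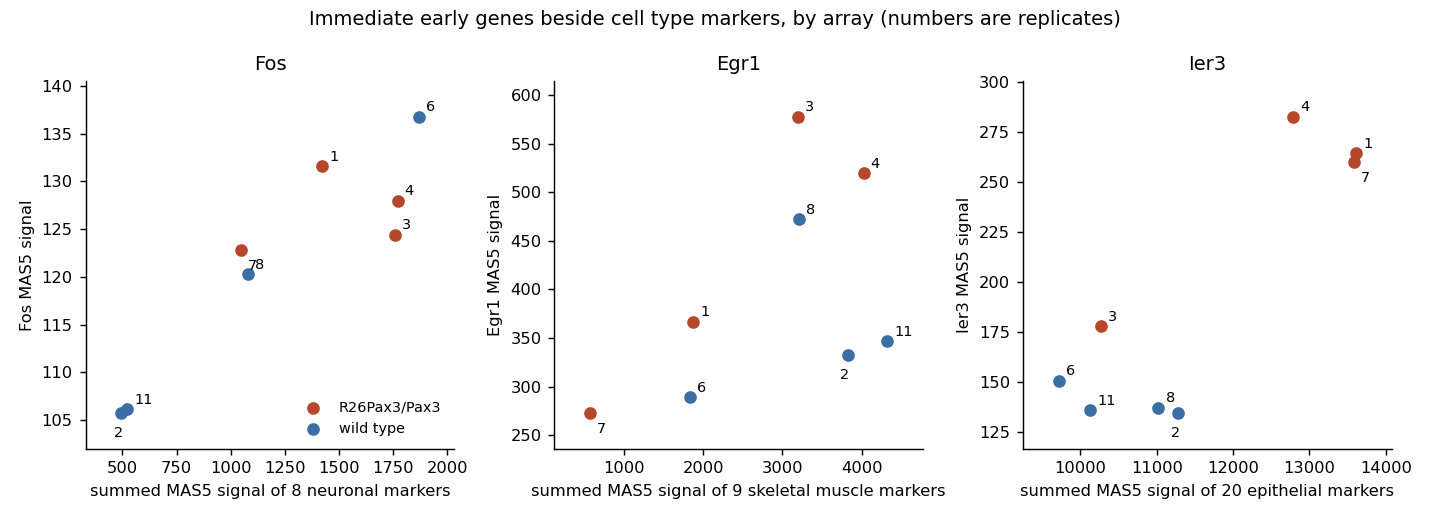
Signal of Fos, Egr1 and Ier3 (vertical axes, linear, not from 0) against the summed signal of neuronal, skeletal muscle and epithelial markers on the 8 arrays, with replicate numbers beside the points. Fos and the neuronal sum are both lowest in wild type replicates 2 and 11, Egr1 and the muscle sum are both lowest in mutant replicate 7, and mutant replicate 3 is the lowest mutant in both Ier3 and the epithelial sum.

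Other early genes were read from lists of related genes. Of 25 further early response and feedback genes tested, 16 had higher and 9 lower means in mutants, with a median log2 fold change of 0.08. None was called in limma, and 6 had an unadjusted p under 0.05, of which 5 were higher, against 4.86% of all probe sets in either direction and 2.43% higher. Hbegf, a membrane-bound ligand of the EGF receptor, read 128.6, 107.1, 125.8 and 135.2 in mutant replicates 1, 3, 4 and 7. It read 64.4, 79.9, 70.6 and 67.6 in wild type replicates 2, 6, 8 and 11. All mutant arrays lay above all wild type arrays (log2 fold change 0.69, SE 0.116, limma adjusted p = 0.137), and replicate 3 was again the lowest mutant. Its second probe set had a log2 fold change of 0.44 with groups that overlapped.

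Socs3, the feedback inhibitor of cytokine receptors that signal through STAT3, behaved alike on its brightest probe set. It read 215.8, 191.2, 242.3 and 267.7 in mutant and 167.6, 107.2, 135.1 and 120.3 in wild type arrays, in the same order. The groups did not overlap (log2 fold change 0.73, SE 0.141, limma adjusted p = 0.282), and replicate 3 was the lowest mutant here too. Its other 2 probe sets had log2 fold changes of 0.31 and 0.68, the latter without overlap. For Ccn2 the log2 difference was 0.33 (SE 0.133, adjusted p = 0.995 in limma). Sik1, a kinase induced by cAMP, had -0.59 (SE 0.225, limma adjusted p = 0.980), but on 6 of the 8 arrays it was dimmer than the array's median, near background.

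Fos did not follow the early response and feedback list as a whole. With each of the 25 genes weighted equally on the log2 scale, the r of Fos with their mean was 0.38 (rho 0.43), and the median r among the 25 genes was 0.01. With the plain sum of signals, in which bright genes weigh most, it was 0.96 (rho 0.86). Of single genes on the list, Ccn2 followed Fos closely, with the r of 0.98 given above. The list member Ccn1, named after its values were seen, varied strongly, at the 99.6th percentile of probe sets of like brightness. On its brightest probe set it was highest in wild type replicate 6 (584.3) and lowest in wild type replicate 2 (94.1), as Fos was. Egr1 had an r of 0.88 (rho 0.88) with the equally weighted mean of the 15 further early transcription factors and 0.85 with their sum, although the median r among the 15 was 0.07. These pairings of Fos and Egr1 with lists were chosen after their values were seen. They come from 36 pairings of a member with a list of other early or heat shock genes.

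Of 15 further early transcription factors tested, 10 had higher and 5 lower means in mutants, with a median log2 fold change of 0.03. None was called, and 2 had an unadjusted p under 0.05 in limma, against 4.86% of all probe sets. These were the orphan nuclear receptors Nr4a2, at -0.30 (SE 0.120, limma adjusted p = 0.995) without overlap between groups, and Nr4a3, at 0.39 (SE 0.161, limma adjusted p = 0.995). On 4 of the 8 arrays Nr4a3 was dimmer than the array's median, near background. The 3 other tested probe sets of Nr4a2 lay between -0.11 and 0.05. Bhlhe40, a repressor of the clock and of hypoxia responses, had 0.34 (SE 0.156), and Klf4, an epithelial and stem cell factor, had -0.16 (SE 0.110). Of 4 other AP-1 genes tested, all had higher means, with a median of 0.03, and 0 had an unadjusted p under 0.05. Jund had 0.26 (SE 0.123, limma adjusted p = 1.00), Fosl2 had 0.06, and Batf and Mafk had 0.01 each.

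Heat shock genes, which stress and tissue dissociation induce beside the early genes, were tested as well. Of 9 tested, 4 had higher and 5 lower means, with a median log2 fold change of -0.04, and 0 were called. The 1 with an unadjusted p under 0.05 in limma was the co-chaperone Hsph1, which had a lower mean in mutants (451 ± 44.5 against 557 ± 81.2, SD, n = 4 each, log2 fold change -0.29). The stress-inducible chaperone Hspa1a had 0.28 (SE 0.281), with differences of 0.79 in the earlier and -0.24 in the later deposit set. On 3 of the 8 arrays Hspa1a was dimmer than the array's median, and it read 9.7 in wild type replicate 6, near background. The brighter list member Hspa1b had log2 fold changes of 0.03, -0.07 and 0.03 on its probe sets. The summed signal of the list lay between 18279 and 20098 in mutant and between 18541 and 21099 in wild type arrays, and these ranges overlapped.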

How the data were processed

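Total RNA from 8 samples was hybridised to Affymetrix arrays. The authors deposited linear signal intensities per probe set, which MAS5 produced according to the labels and per the submitters' processing notes; the mean without the lowest and highest 2% was 150.0 on every array. Neither detection calls nor scanner data entered. Genes were named from the platform annotation where a probe set had 1 symbol (34945 of 45037; 932 had several and 9160 none). Here 64 control probe sets and those at or below the 40th percentile of mean signal were left out, and log2(signal + 16) was fitted in limma 3.58.1 (R 4.3.3) with an intensity trend and no covariates, two-sided, with Benjamini-Hochberg adjustment over 27021 probe sets. The fit was tested on simulated data. It recovered most large differences there but few small ones, so a small difference that was not called may still exist. The members and lists were chosen with earlier results of these data known. Named genes are the members, Pax3, up to 4 genes per list by smallest p and the 10 most like Fos; others are said to be list members. Lists are described by their brightest probe sets and have no test of their own. Alternatives covered the pseudocount, filter, normalization, trend, deposit order and each array left out.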

Additional observations from a re-analysis of the deposited data

Results flagged for a closer look

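Of 132 groups of 4 arrays (a named probe set in 1 genotype), 4 held an array far from the other 3 by Dixon's criterion, and chance gives about 1 in 20. None of the 4 was an immediate early member. The heat shock gene Hsp90aa1 read 5162.3 in wild type replicate 11, apart from the other wild type arrays. The chaperonin gene Hspe1 read 2793.3 and the endothelial adhesion gene Esam 321.8 in mutant replicate 1, apart from the other mutants. The Pax3 probe set that was not higher in mutants read 82.1 in wild type replicate 8, apart from the other wild type arrays.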

How the results depend on the processing

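No paired analysis was run, because the genotypes share no replicate number and the litter of each sample was not available here. The count of members called was 0 under the 7 fits that changed the pseudocount, filter, normalization, trend or block, and 0 to 1 with an array left out; the 1 was Ier3 without mutant replicate 3, where 9 probe sets were called in all. The count over all probe sets was 4 in those 7 fits and 4 to 9 with an array left out. The members' median log2 fold change was 0.109 with 64 added and 0.113 to 0.279 with an array left out. Their median correlation was 0.211 without subtracting genotype means and -0.0740 to 0.214 with an array left out. With an array left out, 8 log2 fold changes crossed 0: Jun's second probe set ran from -0.0390 to 0.0408, Btg2 from -0.120 to 0.0736 and from -0.0631 to 0.0683, Batf from -0.0421 to 0.0603, Mafk from -0.0766 to 0.187, Hspa1a from -0.0449 to 0.419, Mrc1 from -0.0568 to 0.242 and Aif1 from -0.0308 to 0.266. Between the deposit sets, the sign also differed for Junb, both Btg2 probe sets and Hspa1a, among others. Weighting genes equally turned no sign of a printed correlation with a list. It weakened that of Fos with palate mesenchyme from -0.66 to -0.44 (rho from -0.81 to -0.38). The cause was not tested. Dim signals limit Fosb, Atf3 and Junb, and 4 arrays per genotype limit all differences.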
